A study of Mus musculus with 84 samples.

Results

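Hepatic gene expression at the highest dietary dose of methidathion (MT), 100 ppm, was compared with expression at the lowest doses of the same organophosphate, 10 and 25 ppm. The comparison used 21 of the 84 mice of the series, 7 at MT100ppm against 14 in the pooled reference (7 at MT10ppm and 7 at MT25ppm), and no untreated mouse entered it. All were male B6C3F1 mice, a hybrid laboratory strain, whose 7 days on treated diet began at an age of 8 weeks, so that the reference mice had also eaten methidathion. The 7 mice at MT50ppm and the 7 control mice at 0 ppm served only for description and for secondary comparisons. RNA came from frozen liver tissue and was measured with TempO-Seq, in which a pair of detector oligos is ligated on its target mRNA, amplified and counted by sequencing.

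The blocks of the experiment, 1, 3 and 4, contributed 2, 3 and 2 mice to every dose. RNA had been isolated either by Expression Analysis Genomic Services (EA) or by the U.S. EPA, and the EPA mice were 2 at MT100ppm (replicates 4 and 6) and 1 at MT10ppm (replicate 7). The isolator term of the model therefore rested on 1 mouse of the reference. Replicate numbers only name the mice and do not pair them across doses, and where cage mates share a dose, p-values treat them as independent. Total counts lay between 9324649 and 14113917 in these 21 mice. Levels are given in CPM, a count divided by the total of its mouse and multiplied by 1000000, and a floor of 3 counts equals between 0.213 and 0.322 CPM. The floor covers counting error only, since reads without molecular identifiers are not independent molecules. The median correlation of the log2 CPM profile of a mouse with those of the others lay between 0.971 and 0.9835, and was lowest for MT10ppm replicate 7. Markers of hepatocytes summed to between 41225 and 52789.9 CPM at the low doses and between 41242 and 50991 CPM at 100 ppm, and none of the markers in the table was at 0 in all 21 mice.

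Methidathion is an insecticide that cytochromes P450 of the liver oxidise to a form that inhibits acetylcholinesterase, the enzyme that breaks down acetylcholine at synapses. The P450 genes of the Cyp2b, Cyp2c and Cyp3a subfamilies are the classical hepatic targets of the constitutive androstane receptor CAR (gene Nr1i3) and the pregnane X receptor PXR (gene Nr1i2). Both are nuclear receptors that pair with RXR and bind repeats of a short hexamer, often in enhancers far from the gene start. P450 enzymes carry heme, which is made in a pathway whose rate-limiting step in the liver is catalysed by Alas1.

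The sequences before the starts of Cyp2c29, Cyp2c55 and Cyp2b10 are shown because these had the highest log2 fold changes of the P450 genes described here. Each is the 250 bases before the annotated start, from RefSeq on build GRCm38.p6, on the plus strand, at chr19:39286835-39287084 for Cyp2c29, chr19:39006769-39007018 for Cyp2c55 and chr7:25897408-25897657 for Cyp2b10. Distances below refer to these RefSeq starts, which need not be the starts of the GRCm39 gene ranges given further on. Capitals mark letters that match, on either strand, the receptor half-site AGGTCA, its variant with the letters AGTTCA or the core promoter motif TATAAA.
Cyp2c29: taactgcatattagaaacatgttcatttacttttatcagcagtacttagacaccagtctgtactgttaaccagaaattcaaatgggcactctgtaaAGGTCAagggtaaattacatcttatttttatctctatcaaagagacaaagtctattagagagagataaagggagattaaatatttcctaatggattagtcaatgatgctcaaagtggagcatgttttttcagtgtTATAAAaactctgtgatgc
Cyp2c55: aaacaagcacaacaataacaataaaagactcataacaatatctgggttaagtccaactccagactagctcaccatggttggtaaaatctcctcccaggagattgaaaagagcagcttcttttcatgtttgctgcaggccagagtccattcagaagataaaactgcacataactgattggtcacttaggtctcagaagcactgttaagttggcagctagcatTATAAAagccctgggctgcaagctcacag
Cyp2b10: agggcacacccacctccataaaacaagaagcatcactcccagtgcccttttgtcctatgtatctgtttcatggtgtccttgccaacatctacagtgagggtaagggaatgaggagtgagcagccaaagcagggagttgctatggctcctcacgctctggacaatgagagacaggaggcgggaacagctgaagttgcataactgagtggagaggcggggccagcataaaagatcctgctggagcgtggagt
The Cyp2c29 window held AGGTCA from 154 bases and the core promoter motif from 19 bases before the start, and the Cyp2c55 window held the core promoter motif from 29 bases before it. None of the 3 motifs was present in the Cyp2b10 window. In the window of Cyp2c50 the letters TGAACT, which read AGTTCA on the other strand, began 35 bases before the start. Of the windows of 27025 genes in the same table, 13.8% held AGGTCA, 11.9% held its variant and 13% held the core promoter motif, so these letters are common. No matches overlapped in the windows shown.

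At 100 ppm, 4 of 10415 genes differed from the low doses at a Benjamini-Hochberg adjusted p under 0.05 (0.0384% of the genes tested, edgeR with terms for block and isolator). The 3 that rose (0.0288%) were Cyp2c29, Cyp2c55 and Cyp2c54, P450 enzymes of a gene cluster on chromosome 19, and the 1 that fell (0.0096%) was Tmc5, a member of the transmembrane channel-like family. All but Cyp2c54 also changed at least 2-fold. Fewer cells of a type and less RNA per cell cannot be told apart in these bulk liver samples. The median log2 fold change over all genes was -0.0045, and 1226 genes (11.8%) had an unadjusted p under 0.05, of which 670 were higher (6.43%) and 556 lower (5.34%). DESeq2, the alternative count test, put 121 genes past the adjusted threshold. It gave no adjusted p for some genes, Cyp2c55 among them, so this count is not a share of the same 10415 genes. Against MT25ppm alone, edgeR put 8 genes past the threshold.

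**Figure D1:**
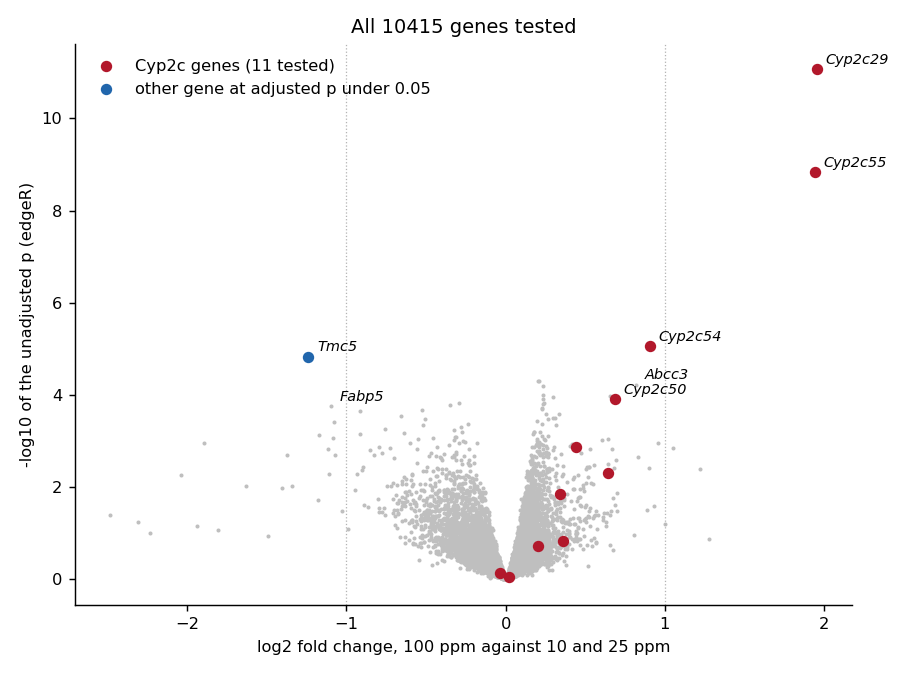
Each point is 1 of the 10415 genes tested, with its log2 fold change at 100 ppm against 10 and 25 ppm on the x axis and the -log10 of its unadjusted p on the y axis, and dotted lines mark a 2-fold change. Cyp2c29 and Cyp2c55 lie apart from all other genes at the upper right, and Tmc5 is the 1 gene with lower expression past the adjusted threshold.

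Cyp2c29 (GRCm39 chr19:39257849-39319157, plus strand) encodes an oxygenase of fatty acids and xenobiotics that is abundant in mouse liver. Its level in the 14 low-dose mice ranged from 861 to 2061 CPM with a median of 1496, and in the 7 mice at 100 ppm from 3249 to 7295 CPM with a median of 6019. Every mouse at 100 ppm lay above every low-dose mouse. The log2 fold change was 1.95 (SE 0.149, adjusted p = 9.01e-08 from edgeR), with means of 1489.9 ± 356 CPM (SD, n = 14) and 5856 ± 1400.4 CPM (SD, n = 7). By dose, the mean was 1397 ± 388 CPM at 10 ppm, 1582 ± 323 at 25 ppm and 2485 ± 604 at 50 ppm, beside 991 ± 324 in the control mice (SD, n = 7 each). The step from 10 to 25 ppm did not pass the test (log2 fold change 0.27, SE 0.173, adjusted p = 0.478), and 50 ppm against the pooled low doses gave 0.70 (SE 0.144, adjusted p = 0.148). From 50 to 100 ppm Cyp2c29 rose by 1.23 on the log2 scale (SE 0.178, adjusted p = 7.10e-04).

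Cyp2c55 (GRCm39 chr19:38995462-39031144, plus strand), whose product oxidises arachidonic acid, was expressed far lower in every group. Low-dose mice had between 1.28 and 5.54 CPM with a median of 3.71, and mice at 100 ppm between 6.73 and 22.9 CPM with a median of 15.4. The groups did not overlap, and Cyp2c29 and Cyp2c55 were the only 2 of 10415 genes (0.0192%) for which this held. The log2 fold change was 1.94 (SE 0.195, adjusted p = 7.53e-06 from edgeR). Means were 3.85 ± 1.55 CPM at 10 ppm, 3.40 ± 0.760 at 25 ppm, 4.99 ± 2.36 at 50 ppm and 14.4 ± 5.10 at 100 ppm (SD, n = 7 each), beside 2.16 ± 1.19 in the control mice. It rose from 50 to 100 ppm (log2 fold change 1.57, SE 0.244, adjusted p = 0.00187), and 50 ppm against the low doses gave 0.38 (SE 0.222, adjusted p = 0.694).

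**Figure D2:**
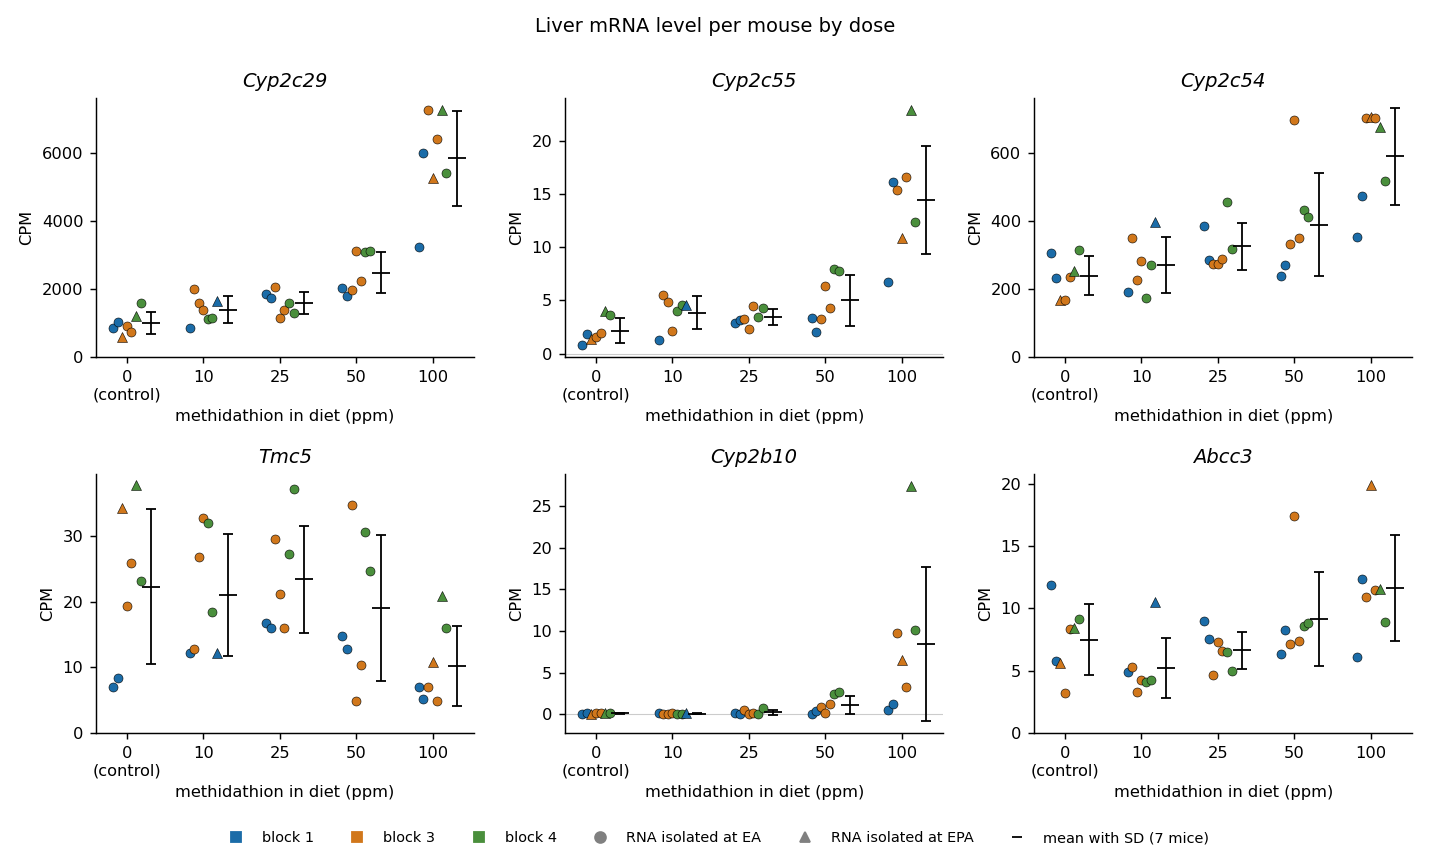
Each point is the CPM of 1 mouse by methidathion dose in the diet, with colour for the experimental block, triangles for RNA isolated at EPA, and a bar for the mean and SD of the 7 mice of a group. For Cyp2c29 and Cyp2c55 all mice at 100 ppm lie above all mice at 10 and 25 ppm, for Cyp2b10 and Cyp2c54 6 of 7 do, and for Tmc5 5 of 7 lie below.

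Cyp2c54 (GRCm39 chr19:40025117-40062282, minus strand), an epoxygenase of the same cluster, ranged from 175 to 455 CPM at the low doses (median 283) and from 353 to 706 CPM at 100 ppm (median 677). Of the mice at 100 ppm, 6 of 7 exceeded all low-dose mice, and replicate 1 of block 1 lay within their range. The log2 fold change was 0.90 (SE 0.157, adjusted p = 0.0303 from edgeR), under 2-fold. The call was lost with EA mice alone (adjusted p = 0.0615), without block 1 (0.0959), without block 3 (0.652) and against 25 ppm alone (0.0739). It was also lost without replicate 3 or 4 at 10 ppm, replicate 2, 3, 4 or 5 at 25 ppm, or replicate 2, 3, 5 or 7 at 100 ppm, with an adjusted p between 0.00294 and 0.173 over all 21 mice left out in turn.

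Tmc5 (GRCm39 chr7:118196519-118274309, plus strand) had between 12.2 and 37.1 CPM at the low doses (median 19.8) and between 4.89 and 20.8 CPM at 100 ppm (median 6.99). Of the mice at 100 ppm, 5 of 7 lay below every low-dose mouse, and both block 4 mice lay inside the low-dose range. The log2 fold change was -1.24 (SE 0.224, adjusted p = 0.0388 from edgeR). The spread was wide in every group, with 22.3 ± 11.8 CPM in the control mice and 18.99 ± 11.1 CPM at 50 ppm (SD, n = 7 each). The call was lost without the block and isolator terms (adjusted p = 0.303), without block 1 (0.215), without block 3 (0.324), against 10 ppm alone (0.256) and with all methidathion mice (0.0983) or all dosed mice (0.416) in the fit. It was also lost without replicate 1, 3 or 5 at 10 ppm, replicate 2, 3, 4, 6 or 7 at 25 ppm, or replicate 2, 3, 4, 5 or 7 at 100 ppm, with an adjusted p of up to 0.179. The 2 EPA mice at 100 ppm averaged 15.8 CPM and the EPA mouse of the reference had 12.2 CPM, whereas the EA mice averaged 8.02 CPM (n = 5) and 22.97 CPM (n = 13).

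Within blocks 1, 3 and 4, the differences in mean log2(CPM + 1) between 100 ppm and the low doses were 1.60, 2.002 and 2.30 for Cyp2c29, and 1.60, 1.72 and 1.82 for Cyp2c55. For Cyp2c54 they were 0.43, 1.32 and 1.04, so that the block 1 mice differed least. For Tmc5 they were -1.10, -1.49 and -0.58. Each block held 2 or 3 mice at 100 ppm and 4 or 6 at the low doses, and no test was made within blocks. Among EA mice alone the differences were 1.94 for Cyp2c29 and 1.66 for Cyp2c55.

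**Figure D3:**
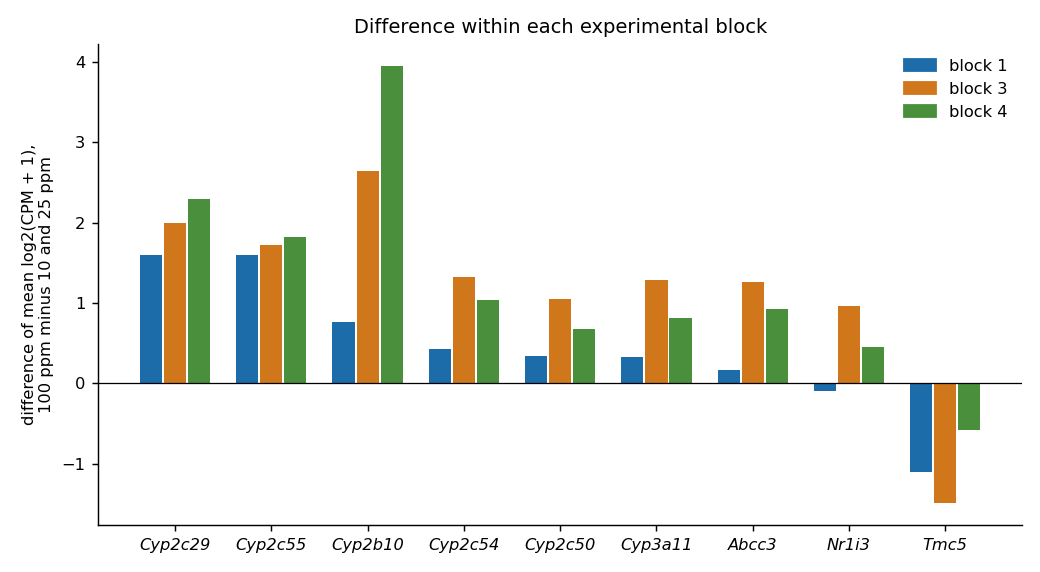
Bars give the difference in mean log2(CPM + 1) between 100 ppm and the pooled 10 and 25 ppm mice within each experimental block (2 or 3 against 4 or 6 mice, with no error bar). Cyp2c29 and Cyp2c55 differ by at least 1.60 in every block, Cyp2b10 differs most in block 4, and Nr1i3 has a negative difference in block 1.

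Of the Cyp2c subfamily, 15 genes were in the table and 11 passed the filter of a median count above 8. Of these, 3 rose, 7 were higher at an unadjusted p under 0.05 where 6.43% of all genes were, 0 were lower, and the median log2 fold change was 0.44 against -0.0045 over all genes. Cyp2c50, whose product is close to that of Cyp2c54, had 78.3 ± 23.1 CPM at the low doses and 129.6 ± 25.3 CPM at 100 ppm, with a log2 fold change of 0.68 (SE 0.147, adjusted p = 0.0989 from edgeR). Cyp2c37 had 3.05 ± 1.21 and 4.51 ± 1.22 CPM (log2 fold change 0.64, adjusted p = 0.224), and Cyp2c67 had 1141 ± 249 and 1475 ± 228 CPM (0.44, adjusted p = 0.160). Cyp2c23, an arachidonic acid epoxygenase, had 17.8 ± 4.64 and 21.4 ± 5.50 CPM (0.34, adjusted p = 0.293). The other 4 tested members, Cyp2c39, Cyp2c40, Cyp2c68 and Cyp2c70, had log2 fold changes between -0.04 and 0.36 and unadjusted p between 0.151 and 0.882. Cyp2c70, which makes muricholic acids in mouse bile, had 7237 ± 1249 CPM at the low doses and 6403 ± 1316 CPM at 100 ppm. Cyp2c38, Cyp2c65, Cyp2c66 and Cyp2c69 did not pass the filter, and none of them exceeded 1.08 CPM in these 21 mice.

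The separate values of these paralogs are not equally certain, because the authors' quantification can split a read between near-identical transcripts. Counts were not whole in 79 of 84 mice for Cyp2c29, in 82 for Cyp2c54 and in 84 for Cyp2c50, but in 0 for Cyp2c55 (tolerance 1e-06). As a measure of likeness, the share of 50-base windows of a gene's GENCODE transcripts that also occur in another gene was 0.409% for Cyp2c55, 3.75% for Cyp2c29, 10.5% for Cyp2c54, 15.2% for Cyp2c50, 26.6% for Cyp2c37 and 46.4% for Cyp2c67. Most of the shared windows of Cyp2c54 occurred in Cyp2c50. Probe positions were not used here, so how far the assay's own targets are shared was not tested.

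**Figure D4:**
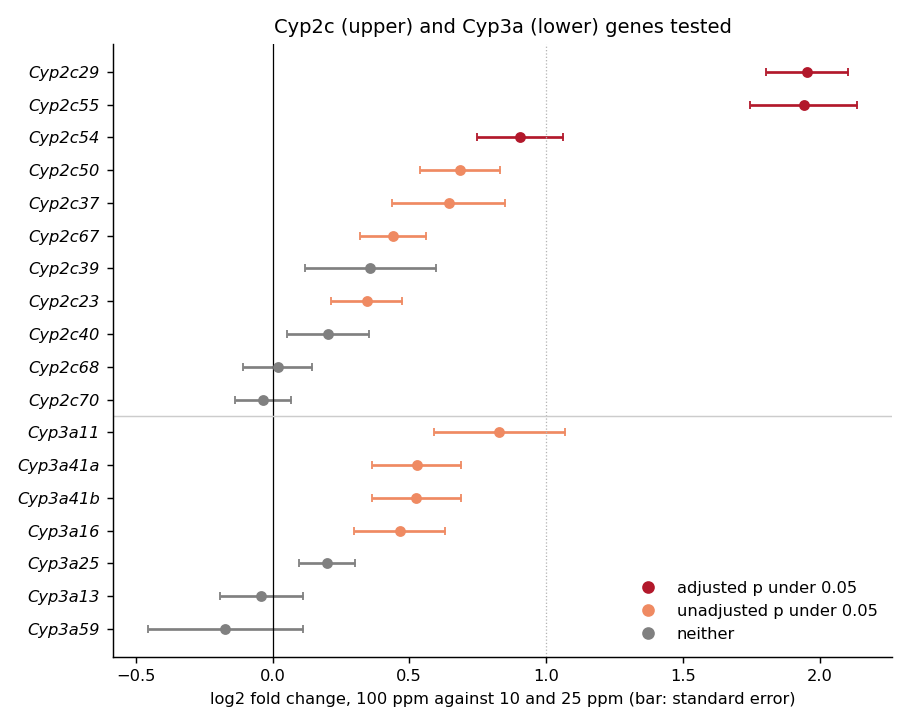
Points give the log2 fold change at 100 ppm against 10 and 25 ppm with its standard error for the 11 Cyp2c genes and the 7 Cyp3a genes tested, coloured by the edgeR test. In this test 3 Cyp2c genes pass the adjusted threshold, and fold changes run from 1.95 for Cyp2c29 to -0.04 for Cyp2c70 and from 0.83 for Cyp3a11 to -0.17 for Cyp3a59.

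Cyp2b10 (GRCm39 chr7:25597045-25626049, plus strand), the standard marker of CAR activation in mouse liver, was left out of the test by the filter, as its median count over all mice was 1. It was at 0 counts in 7 of the 14 low-dose mice, none of which had more than 7 counts, and had between 6 and 294 counts at 100 ppm. In CPM, the low-dose mice ranged from 0 to 0.751 and the mice at 100 ppm from 0.454 to 27.5 with a median of 6.49, so that 6 of 7 lay above all low-dose mice. By dose the means were 0.0365 ± 0.0456 CPM at 10 ppm, 0.218 ± 0.301 at 25 ppm, 1.09 ± 1.07 at 50 ppm and 8.40 ± 9.26 at 100 ppm (SD, n = 7 each), with 0.0766 ± 0.0619 in the control mice. The mean at 10 ppm lay under the floor of 3 counts and that at 25 ppm at about this floor. When the filter was dropped (17548 genes, 7 at an adjusted p under 0.05, 0.0399%, 5 of them higher, 0.0285%), Cyp2b10 rose with a log2 fold change of 5.49 (SE 0.455, adjusted p = 8.21e-08 from edgeR), a size that depends on how counts near 0 are treated.

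In fits chosen after these values were seen, the log2 fold change of Cyp2b10 lay between 5.000 and 5.93 with each mouse left out and passed in 21 of 21. In blocks 1, 3 and 4 its mean at 100 ppm was 0.836, 6.50 and 18.8 CPM against 0.0597, 0.132 and 0.188 CPM at the low doses. Without the filter it also rose at 50 ppm against the low doses (log2 fold change 3.32, SE 0.567, adjusted p = 0.0373 from edgeR) and from 50 to 100 ppm (2.54, SE 0.394, adjusted p = 0.00143). The other 2 genes that passed only without the filter were Acp3, an acid phosphatase (log2 fold change -2.10, SE 0.374, adjusted p = 0.0255, 3 to 16 counts at the low doses and 1 to 5 at 100 ppm), and Dmbt1 (4.65, adjusted p = 0.0372). Dmbt1 had 0 counts in 13 of 14 and 4 of 7 mice, and its call held in 7 of 21 fits with a mouse left out, against 15 of 21 for Acp3. Both calls were lost with EA mice alone and without block 1, block 3 or block 4, with an adjusted p of up to 0.579 for Acp3 and 0.919 for Dmbt1, and without MT100ppm replicate 3 the log2 fold change of Dmbt1 was 1.10. Cyp2b9, Cyp2b13 and Cyp2b23 had at most 0.374 CPM in any mouse at 100 ppm.

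Of the 7 Cyp3a genes tested, 0 passed the adjusted threshold and 4 were higher at an unadjusted p under 0.05 (6.43% of all genes), with a median log2 fold change of 0.47. Without block 3 this count was 0. Cyp3a11 (GRCm39 chr5:145791236-145816867, minus strand), the main xenobiotic-inducible P450 of the subfamily and a target of PXR, had 69.6 ± 29.7 CPM at the low doses and 119.6 ± 27.7 CPM at 100 ppm, with a log2 fold change of 0.83 (SE 0.240, adjusted p = 0.167 from edgeR). Its low-dose groups had 88.4 ± 19.5 CPM at 10 ppm and 50.7 ± 26.4 CPM at 25 ppm (log2 fold change -0.87, SE 0.210, adjusted p = 0.0605). Against 25 ppm alone the difference at 100 ppm passed (1.27, adjusted p = 0.0252), and against 10 ppm alone it did not (0.49, adjusted p = 0.284). Cyp3a41a and Cyp3a41b, which share 98.9% and 93.5% of their windows with other genes and are uncertain as separate genes, both had a log2 fold change of 0.53 (adjusted p = 0.212 from edgeR). Both are counted among the 4 higher genes, so that count may hold fewer separate signals. Cyp3a25 had 314 ± 58.6 and 377 ± 88.02 CPM (unadjusted p = 0.0643).

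Of the 19 receptors and partners tested, 0 passed the adjusted threshold, 1 was higher and 2 were lower at an unadjusted p under 0.05 (6.43% and 5.34% of all genes). Nr1i3, which encodes CAR, had 224 ± 76.2 CPM at the low doses and 306 ± 39.3 CPM at 100 ppm, with a log2 fold change of 0.47 (SE 0.134, adjusted p = 0.167 from edgeR). All 7 mice at 100 ppm lay within the low-dose range of 127 to 404 CPM, and the within-block differences in mean log2(CPM + 1) were -0.10, 0.97 and 0.45 in blocks 1, 3 and 4. Nr1i2, which encodes PXR, had 43.4 ± 10.2 and 44.9 ± 6.07 CPM (unadjusted p = 0.911). Nr0b2, the corepressor SHP, had 3.15 ± 1.17 and 2.12 ± 0.985 CPM (log2 fold change -0.67, SE 0.265, adjusted p = 0.310). The RXR genes Rxra and Rxrb had unadjusted p of 0.763 and 0.742.

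Heme metabolism was tested as 17 genes, of which 1 had an unadjusted p under 0.05 (11.8% of all genes). This was Fech, the last enzyme of heme synthesis, with 453 ± 49.5 CPM at the low doses and 501 ± 60.5 CPM at 100 ppm (log2 fold change 0.20, SE 0.0401, adjusted p = 0.0850 from edgeR). From 50 to 100 ppm it rose by 0.22 (SE 0.0533, adjusted p = 0.0386), a call that was lost without the block and isolator terms, and no mouse at 50 ppm was EPA-isolated. Alas1 had a log2 fold change of 1.005 with an SE of 0.511 (adjusted p = 0.456). Its level at 100 ppm ran from 28.5 to 384 CPM with a median of 66.4, and at the low doses from 20.6 to 202 CPM with a median of 62.4. The highest values at 100 ppm, 298 and 384 CPM, were those of both block 1 mice.

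Of the 14 transporters tested, 0 passed the adjusted threshold, and 2 were higher and 2 lower at an unadjusted p under 0.05 (6.43% and 5.34% of all genes). Abcc3 (GRCm39 chr11:94233874-94283823, minus strand), an efflux pump for conjugates on the blood side of the hepatocyte, had 5.93 ± 2.06 CPM at the low doses and 11.6 ± 4.23 CPM at 100 ppm (log2 fold change 0.82, SE 0.165, adjusted p = 0.0850 from edgeR). It passed against 10 ppm alone (adjusted p = 0.0194). At 50 ppm it had 9.13 ± 3.76 CPM, and 100 against 50 ppm gave 0.12 (SE 0.194). Slco1a4, an uptake carrier for organic anions, had 12.3 ± 6.08 and 17.2 ± 5.09 CPM (log2 fold change 0.52, SE 0.171, adjusted p = 0.232). Of the 45 conjugation enzymes tested, 0 passed the adjusted threshold, 9 were higher and 1 lower at an unadjusted p under 0.05 (6.43% and 5.34% of all genes). Those higher included Gstp1, a glutathione transferase, with 1279 ± 335 and 1566 ± 262 CPM (log2 fold change 0.42, adjusted p = 0.237), and Ugt1a1, which conjugates bilirubin, with 1203 ± 218 and 1347 ± 245 CPM (0.23, adjusted p = 0.243). The count of 9 was 4 without replicate 1 or replicate 3 of MT100ppm, 4 without block 1, 5 without the block and isolator terms, 4 with all dosed mice in the fit and 2 without block 3.

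Ache, the target of organophosphates, was left out of the test by the filter (median count 4.5), with 0.407 ± 0.192 CPM at the low doses and 0.331 ± 0.215 CPM at 100 ppm. It was not among the 7 genes that passed the adjusted threshold without the filter. Of 28 organophosphate-related hydrolases tested, 4 were higher and 1 lower at an unadjusted p under 0.05 (6.43% and 5.34% of all genes), and 0 passed after adjustment. The carboxylesterase Ces1c, of a family that organophosphates bind, had 5853 ± 505 and 6663 ± 545 CPM (log2 fold change 0.25, SE 0.0582, adjusted p = 0.114 from edgeR). Ces2a had 154 ± 35.8 and 196 ± 29.9 CPM (0.32, SE 0.0773, adjusted p = 0.136). Ces2b (-0.33, SE 0.106, adjusted p = 0.224) had the opposite sign under other covariates, 0.0718 without the block and isolator terms and 0.0701 with the block term alone.

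In fatty acid and triglyceride synthesis, 10 of 28 genes were lower and 3 higher at an unadjusted p under 0.05 (5.34% and 6.43% of all genes), with a median log2 fold change of -0.17, and 0 passed the adjusted threshold. Acacb, the acetyl-CoA carboxylase that controls entry of fatty acids into mitochondria, had 8.40 ± 3.71 CPM at the low doses and 4.83 ± 1.68 CPM at 100 ppm (log2 fold change -0.92, SE 0.207, adjusted p = 0.104 from edgeR). Acaca, its cytosolic counterpart, had nearly equal means of 153 ± 69.5 and 149 ± 92.03 CPM beside a fitted log2 fold change of -0.44 (SE 0.152, adjusted p = 0.255). The count of 10 was 2 with EA mice alone, 2 without MT10ppm replicate 7, 3 without MT100ppm replicate 1 and 6 without MT100ppm replicate 3. It was 2 without block 1, 3 against 25 ppm alone, 3 with the block term alone and 1 without the block and isolator terms. Fabp5, a fatty acid binding protein outside this list, had 86.4 ± 32.2 and 38.7 ± 19.4 CPM (log2 fold change -1.10, SE 0.243, adjusted p = 0.103), with 4 of 7 mice at 100 ppm below all low-dose mice.

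Of 27 acute phase genes, which hepatocytes express in inflammation, 8 were lower and 0 higher at an unadjusted p under 0.05 (5.34% and 6.43% of all genes), with 0 past the adjusted threshold and a median log2 fold change of -0.23. Lcn2 had the lowest log2 fold change of the genes named here, -2.48, with an SE of 1.14 (adjusted p = 0.405 from edgeR) and levels of 526 ± 847 and 55.96 ± 59.98 CPM. Apcs, serum amyloid P, had 272 ± 105 and 163 ± 50.8 CPM (-0.68, SE 0.239, adjusted p = 0.267). The count of 8 was 5 without MT10ppm replicate 1, MT10ppm replicate 3 or MT100ppm replicate 4, 3 without MT100ppm replicate 5 and 2 without MT100ppm replicate 3. It was 1 without block 3 and 14 without block 1. With the block term alone it was 14, without the block and isolator terms 14, and against 25 ppm alone 16.

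Markers of immune cells are given beside these genes. Of the 15 Kupffer cell and macrophage markers tested, 6 were lower and 0 higher at an unadjusted p under 0.05 (5.34% and 6.43% of all genes, median log2 fold change -0.25), and the whole list of 21 summed to between 225 and 471 CPM at the low doses and between 221 and 344 CPM at 100 ppm. Folr2, a marker of resident macrophages, had 4.77 ± 0.825 and 3.27 ± 0.650 CPM (log2 fold change -0.47, SE 0.133, adjusted p = 0.167 from edgeR), and Clec4f, which marks Kupffer cells, had 6.99 ± 1.62 and 5.51 ± 1.43 CPM (-0.37, adjusted p = 0.315). The count of 6 was 3 without replicate 3 or replicate 5 of MT100ppm, 10 without MT10ppm replicate 7, 0 without block 3, 2 with all dosed mice in the fit, 1 against 10 ppm alone and 12 against 25 ppm alone. Of the 8 lymphocyte and neutrophil markers tested, 4 were lower and 0 higher (5.34% and 6.43% of all genes), and the list of 24 summed to between 20.1 and 46.9 CPM and between 11.7 and 26.6 CPM. The count of 4 was 2 against 10 ppm alone. Ighm, the heavy chain of immunoglobulin M, had 11.2 ± 5.54 and 5.75 ± 3.53 CPM (log2 fold change -1.08, SE 0.279, adjusted p = 0.160), and Ly6g, a neutrophil marker, had 2.40 ± 0.626 and 1.53 ± 0.591 CPM (-0.70, adjusted p = 0.168). No marker of either list was at 0 in all 21 mice, and the part of these cells in the acute phase values was not tested.

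**Figure D5:**
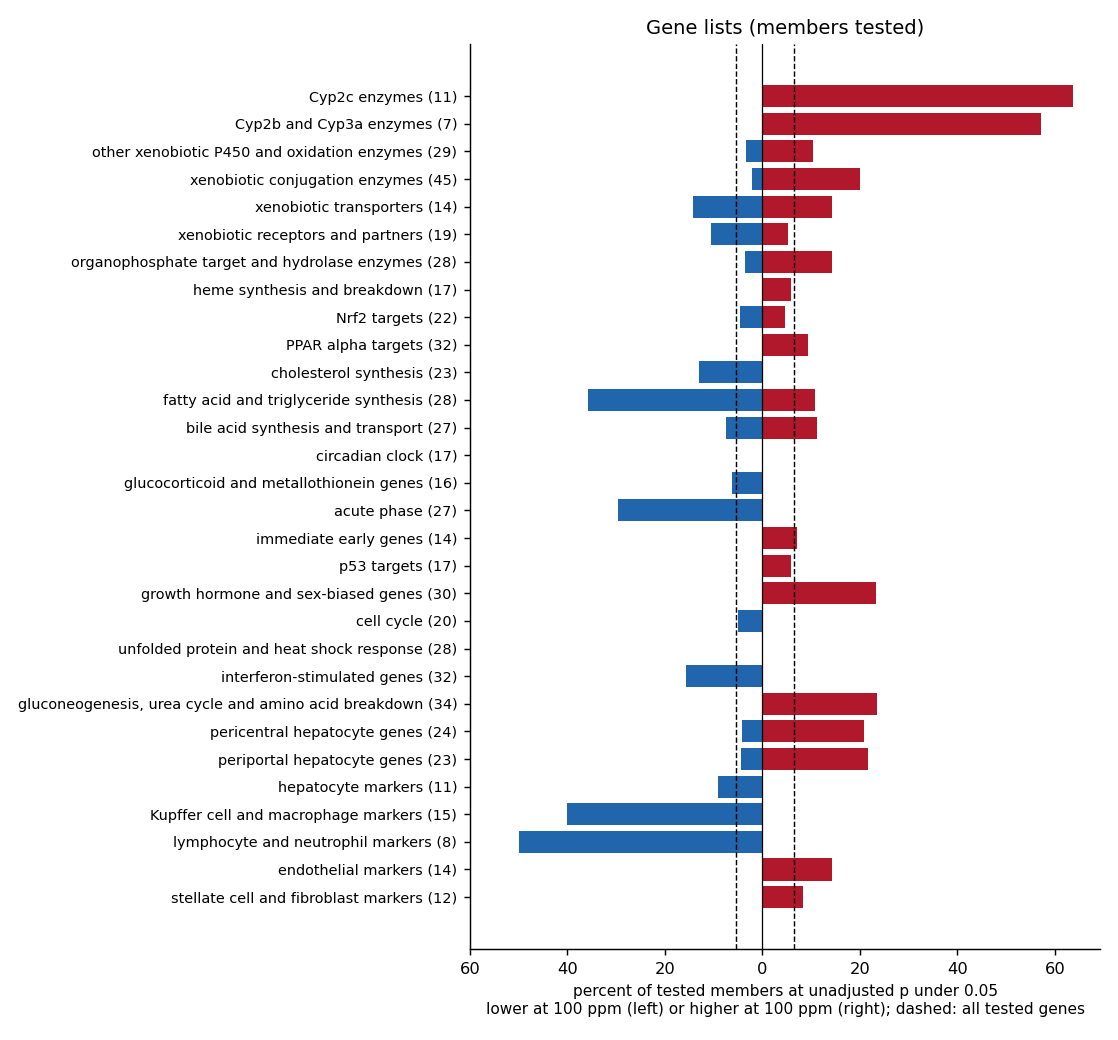
Bars give, for each list with at least 7 members tested (number in brackets), the percent of members higher (right) or lower (left) at 100 ppm at an unadjusted p under 0.05, and dashed lines give the same over all 10415 genes (6.43% higher, 5.34% lower). Cyp2c and Cyp3a enzymes extend furthest to the right, and lymphocyte and neutrophil, macrophage and fatty acid synthesis lists furthest to the left.

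The other lists are given by their counts at an unadjusted p under 0.05, with 0 members past the adjusted threshold except Cyp2c29 and Cyp2c54 among the pericentral genes. Over all genes tested, 6.43% were higher and 5.34% were lower at this unadjusted p from edgeR, beside which the counts in each direction are to be read. Of 17 circadian clock genes and 28 genes of the unfolded protein and heat shock responses, 0 had an unadjusted p under 0.05, and of 22 Nrf2 targets 1 was higher and 1 lower. Of 32 PPAR alpha targets 3 were higher, of 23 cholesterol synthesis genes 3 were lower, and of 32 interferon-stimulated genes 5 were lower. Gluconeogenesis, the urea cycle and amino acid breakdown had 8 of 34 genes higher, among them the tryptophan dioxygenase Tdo2 with 1563 ± 159 and 1803 ± 241 CPM (log2 fold change 0.27, SE 0.0633, adjusted p = 0.122 from edgeR). This count was 5 without replicate 2 or replicate 5 of MT100ppm or without block 3 or without the block and isolator terms, 4 without block 1 or with all dosed mice in the fit and 3 against 10 ppm alone. Of 30 growth hormone and sex-biased genes 7 were higher, among them the urinary protein gene Mup21 with 269 ± 92.3 and 395 ± 96.5 CPM (log2 fold change 0.64, SE 0.168, adjusted p = 0.160). Apart from gluconeogenesis, the urea cycle and amino acid breakdown, the list counts of this paragraph were not recomputed with other mice, blocks or covariates. Pericentral hepatocyte genes had 5 of 24 higher, which were 4 Cyp2c genes and Nr1i3, and periportal genes had 5 of 23 higher. Of the markers of other cell types, 2 of 14 endothelial, 1 of 12 stellate cell and fibroblast and 1 of 5 erythroid markers were higher. Among pancreas, adipose and gut markers, 0 of 3 had an unadjusted p under 0.05. Of the 11 cholangiocyte markers measured, only Spp1 was tested, and it was lower. Spp1 is also 1 of the 6 lower macrophage markers given above. The remaining lists held 4 of 29 other P450 and oxidation enzymes, 5 of 27 bile acid genes, 1 of 16 glucocorticoid and metallothionein genes, 1 of 14 immediate early genes, 1 of 17 p53 targets and 1 of 20 cell cycle genes with an unadjusted p under 0.05, where 11.8% of all genes had one. Lists share members: Abcc3 and Nr0b2 are also among the bile acid genes, and Lcn2 is the 1 glucocorticoid and metallothionein gene. Counts of different lists are therefore not separate observations.

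Of the 25 genes of smallest p, 17 remain to be given, with Fech and Ces1c among them. Fech, Mccc2, Gm2225, Rps25, Atp6ap2, Eif2a, Tm2d1, Aldh6a1, Ube2q1, Rdh7, Cnppd1 and Ces1c had log2 fold changes between 0.20 and 0.33, and Dsg1c, a desmosomal cadherin, had 0.66 (SE 0.139). Gm2225 and Rps25, with log2 fold changes of 0.234 and 0.233, kept a nearly constant ratio of CPM across mice and are uncertain as separate genes. Tspan14, Apob, Cxxc5 and Fam184a had log2 fold changes between -0.66 and -0.29. Adjusted p of these 17 genes lay between 0.0850 and 0.118 from edgeR, so none of them is called changed. Apob, the main protein of very low density lipoprotein, had 431 ± 84.3 and 387 ± 139.7 CPM (log2 fold change -0.35, SE 0.0765), and its log2 fold change was -0.17 without the block and isolator terms and -0.17 with the block term alone. From 50 to 100 ppm it fell (-0.63, SE 0.0879, adjusted p = 6.14e-04), and this call too was lost without those terms.

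The doses between were compared in 1 model of the 28 methidathion mice, which shares mice with the comparison above, so its values are only set side by side. At 50 ppm against 10 and 25 ppm, 0 of 10415 genes passed the adjusted threshold with edgeR, while 823 (7.9%) had an unadjusted p under 0.05, 4.32% of all genes higher and 3.58% lower, and DESeq2 called 9, none of them at 2-fold. At 100 against 50 ppm, 134 genes passed (1.29%), 76 higher (0.73%) and 58 lower (0.557%), of which Cyp2c29, Cyp2c55 and Stxbp2, a protein of vesicle fusion (log2 fold change -1.07, SE 0.251, adjusted p = 0.0294 from edgeR), changed at least 2-fold. In that step 15.4% of genes had an unadjusted p under 0.05, 7.78% higher and 7.63% lower, and without the block and isolator terms 2 genes passed the adjusted threshold. The pooled reference doses differed from each other in 15 genes (0.144%), 14 higher (0.134%) and 1 lower (0.0096%) at 25 ppm, none by 2-fold, and an unadjusted p under 0.05 was found for 15.6% of the genes tested, 7.21% higher and 8.42% lower.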

How the data were processed

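Liver TempO-Seq counts of 21 methidathion mice were analysed, with control and MT50ppm mice for description. The authors trimmed reads, aligned them to mm39 with STAR, quantified Ensembl transcripts by expectation maximisation in Partek and deposited estimated counts per gene without normalization, in which a read can be split between genes. Their covariate-adjusted table was not used, since the adjustment removes the independence of the mice. Estimated counts were rounded for the tests. Groups, blocks and isolators came from the sample labels.

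Genes with a median count above 8 over all 84 mice were tested with edgeR 4.0.16 in R 4.3.3 (TMM scaling, quasi-likelihood test, covariates block and isolator), with Benjamini-Hochberg adjustment over 10415 genes. Standard errors are the log2 fold change divided by the root of F. Alternatives were DESeq2 1.42.0, limma 3.58.1, other scaling, filters, covariates and references, and each mouse left out. On simulated counts for this comparison and 10415 genes, edgeR recovered 93 of 100 genes at a log2 change of 1 and 100 of 100 at 2, with 10 false calls. The simulation held no block or isolator effects, and its 200 changed genes make the adjusted threshold easier to pass than in the data. It therefore checks the code and does not give the share of true changes found in these mice. GENCODE on GRCm39 named 17660 of 17695 identifiers. Named genes were those past the adjusted threshold, filled by smallest p to 25, all members of 4 lists (Cyp2c, Cyp2b and Cyp3a, receptors, heme), Ache, and at most 4 of smallest p in other lists. Acp3, Dmbt1, Stxbp2, the fits of low-count genes and the motifs were chosen after values were seen. The comparison and all lists were chosen with earlier results of these data known.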

Additional observations from a re-analysis of the deposited data

Results flagged for a closer look

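Among 123 groups of 7 mice (41 genes at 10, 25 and 100 ppm), 10 held a mouse whose gap to its nearest neighbour, relative to the range, exceeded Dixon's 95% critical value. Chance alone gives about 5% of groups for independent normal values. The CPM values need not be normal, the groups share mice across genes, and all 10 flags were highest values. The number of flags can therefore not be judged against this share. MT10ppm replicate 7, the EPA-isolated mouse of the reference, was the highest of its group for Abcc3 (10.5 CPM, next 5.27), Nr1i2 (74.9, next 48.4), Ces2a (254, next 179) and Acaca (335, next 164). MT25ppm replicate 1 was the highest for Cyp2c50 (134 CPM, next 84.4), Cyp2c37 (6.01, next 2.75) and Apob (559.6, next 423). At 25 ppm, replicate 3 had 18.5 CPM of Acacb (next 10.6) and replicate 4 had 3159 CPM of Lcn2 (next 1159). At 100 ppm, replicate 6 had 27.5 CPM of Cyp2b10 (next 10.2), and without that mouse and without the filter its log2 fold change was 5.37 (adjusted p = 1.31e-07 from edgeR).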

How the results depend on the processing

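Cyp2c29 and Cyp2c55 passed the adjusted threshold in each of 21 fits with a mouse left out and in each other alternative that gave a value (15 and 14, DESeq2 giving no adjusted p for Cyp2c55), with log2 fold changes of 1.85 to 2.09 and 1.76 to 2.05. Tmc5 passed in 8 of 21 and 9 of 15, and Cyp2c54 in 11 of 21 and 11 of 15. Genes at an adjusted p under 0.05 numbered 121 with DESeq2, 7 with no filter on low counts, 2 without block 1, 2 without block 3, 8 against MT25ppm alone and 2 to 6 with a mouse left out, and the 2-fold limit left 7 (DESeq2), 6 (no filter), 6 (MT25ppm alone) and 2 to 3. The count of 4 became 2 without replicate 3 of MT10ppm, replicate 2, 3 or 4 of MT25ppm or replicate 3, 5 or 7 of MT100ppm. At 50 ppm against the low doses, DESeq2 called 9 genes and no filter 1, the last also at 2-fold. From 50 to 100 ppm the counts were 351 with DESeq2, 63 with no filter and 2 without the block and isolator terms, and at 2-fold 12 with DESeq2 and 8 with EA mice alone. Between 25 and 10 ppm they were 153 with DESeq2, 23 with median-of-ratios scaling, 4 with no filter, 82 with EA mice alone (1 at 2-fold) and 1 without these terms. Ces2b had a log2 fold change of 0.0718 without the terms and 0.0701 with the block term alone. The cause of these differences was not tested. Over the named genes with an unadjusted p under 0.05, 3394 recomputed values kept their direction and side of the adjusted threshold, 39 newly passed and 2 turned direction. The 33 values that no longer passed were all of Tmc5 or Cyp2c54. Most of the genes recomputed had not passed in the main comparison, so keeping their side mostly meant not passing again. No paired analysis was possible because the replicate numbers only name mice. Depth limits Cyp2b10, Ache and other genes near 3 counts.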
